A study of Mus musculus with 18 samples.

Results

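The Ifi200 genes form a cluster on the distal part of mouse chromosome 1, and their expression was followed in mammary tumors that carried mutant Trp53 or had lost it. The 9 members examined, of 57126 genes in the table, were Ifi202b, Ifi203, Ifi204, Ifi207, Ifi209, Ifi211, Ifi213, Mndal and Aim2. The set was chosen by name and on its CPM values in these 18 tumors, which were already known, so the members' differences between genotypes are given as a description, with no test. In the GRCm39 build the members lie between Aim2 (chromosome 1, 173178445 to 173293930, plus strand) and Ifi202b (chromosome 1, 173790134 to 173810414, minus strand), a stretch of 632 kb. All 9 passed the filter on low counts, as did 4 of the 11 other annotated genes of the stretch, namely Ifi206, Ifi208, Ifi214 and the pseudogene Ifi203-ps.

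RNA was sequenced from portions of whole mammary tumors. There were 7 tumors of 7 MaP R172H/- mice, 5 tumors of 5 MaP R245W/- mice and 6 tumors of 4 MaP -/- mice. All animals were adult females, and their background was given as an F1 hybrid of BALB/c and C57BL/6J. An adenovirus carrying Cre recombinase was injected into the mammary ducts, so that wild-type Trp53 sequences were excised in ductal epithelium. A p53 R172H or R245W mutant over a null allele, or neither copy, was left there. Stromal and immune cells kept wild-type Trp53. The Rosa26LSL-TdTomato/+ reporter allele was also present in 3 of 7 MaP R172H/- mice (YZ2, YZ6 and YZ10), in 3 of 5 MaP R245W/- mice (JM1233, JM1564 and RM0014) and in no MaP -/- mouse. MaP R172H/- libraries were sequenced on a HiSeq and the others on a NovaSeq instrument, so genotype and platform cannot be told apart in any comparison with MaP R172H/-. Libraries held 23113578 to 37365062 counts. Trp53 itself read 1.58 ± 0.31 (log2 fold change ± SE) above MaP -/- in MaP R172H/- tumors and 0.95 ± 0.44 above it in MaP R245W/- tumors, with FDR values of 0.008 and 0.43 from edgeR. YZ7, JM1233 and JM779-T1 had the lowest summed levels of 9 epithelial markers in their groups, at 377, 478 and 163 CPM (counts-per-million of the TMM-scaled library size) against 163 to 8740 CPM over all tumors, and JM833-T2 had 571 CPM of 8 B-cell markers against a median of 6.61 CPM. In bulk tumor RNA, fewer cells of a type and less RNA per cell cannot be told apart.

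Ifi200 proteins share a HIN domain that binds DNA, and most also carry a pyrin domain through which they meet other proteins. Aim2 senses DNA in the cytosol and assembles an inflammasome with the adaptor Pycard (ASC) and caspase-1, and Ifi204 and Mndal act in nuclear and cytosolic responses to DNA. Ifi202b (p202) has HIN domains but no pyrin domain and restrains Aim2. Most of the genes are induced by interferons and are well known in macrophages and lymphocytes. The cluster differs between inbred strains in gene content and in expression, and Ifi202b is among its most variable genes.

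The promoters of the members were searched for elements known from interferon responses. Whether such an element goes with a member's expression in these tumors was not tested. RefSeq promoters (250 bases before to 50 after the start, GRCm38.p6, reference strain C57BL/6J) were found for 8 of 9 members and not for Ifi204. The core of the interferon-stimulated response element, the letters GAAANNGAAA searched on both strands, stood in 5 of these 8 members, Ifi203, Ifi207, Ifi211, Ifi213 and Mndal, and in 3.44% of 32851 promoters in all. The windows below run 5′ to 3′ on the gene's own strand, with the match in capitals.
Ifi213: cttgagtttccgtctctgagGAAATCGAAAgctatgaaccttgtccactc
Ifi207: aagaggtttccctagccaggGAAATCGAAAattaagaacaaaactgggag
Ifi211: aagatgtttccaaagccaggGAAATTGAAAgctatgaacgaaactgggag
Mndal: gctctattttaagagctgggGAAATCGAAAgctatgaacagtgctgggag
Ifi203: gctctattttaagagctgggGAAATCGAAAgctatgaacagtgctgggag
The match began at base -73 from the start site in Ifi213, -41 in Ifi207, -37 in Ifi211, -36 in Mndal and -35 in Ifi203, and the windows of Mndal and Ifi203 were letter for letter the same. In Ifi203 it lay in 1 of 2 annotated promoters, and the other start of Mndal had a match on the opposite strand at -54. Neither the promoter of Aim2 nor that of Ifi209 held this element or a gamma-activated site, the letters TTCNNNGAA.

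Ifi202b did not hold the response element. Its promoter (chr1:173982845-173983094, minus strand, GRCm38.p6) held a gamma-activated site, in capitals, from -148 to -140, and 8.3% of all promoters held one.
Ifi202b: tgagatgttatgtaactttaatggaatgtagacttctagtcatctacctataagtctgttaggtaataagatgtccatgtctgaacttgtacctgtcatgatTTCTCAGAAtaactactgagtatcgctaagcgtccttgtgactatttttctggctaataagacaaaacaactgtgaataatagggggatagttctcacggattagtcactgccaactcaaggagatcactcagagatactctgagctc
A match says only that the letters are present in the reference sequence, and the tumors' own promoters were not read.

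Ifi202b had the widest range of the 9 members. In MaP R172H/- tumors its level ran from 7.19 CPM in YZ7 through a median of 58.1 to 94.5 CPM in YZ11. In MaP R245W/- tumors it was 0.595 CPM in JM1233, 9.73 in JM1564, 33.7 in RM0014, 119 in JM1126 and 174 in JM1133. In MaP -/- tumors it ran from 0.263 CPM in JM836-T1 through a median of 2.47 to 16.5 CPM in JM663-T2. The MaP R172H/- tumors other than YZ7 thus lay between 30.9 and 94.5 CPM. The MaP R245W/- tumors covered nearly the whole range and the MaP -/- tumors were low, with overlap between every pair of groups. YZ7 and JM1233 were the lowest of their groups both here and for epithelial markers. Among MaP -/- tumors JM836-T1 was lowest here and JM779-T1 for the markers. The study typed MaP R172H/- tumors as luminal B or HER2-enriched and the others as triple-negative, so subtype also follows genotype. The part of cell make-up or subtype was not tested. The highest tumor stood 663-fold above the lowest, a range on the log2 scale that 99.3% of the 22481 genes that passed the filter did not reach. Ifi202b was nevertheless counted in all 18 libraries, and none was at or under 3 counts: JM836-T1 had 7, JM779-T1 had 12, JM1233 had 20 and JM833-T2 had 26 counts. Tumor names follow the labels, and for mice JM779 and JM836 the study's list of tumors marks T2, not T1, as the sequenced tumor, so which tumor of these mice was sequenced is uncertain while the genotype is the same. The largest step between neighbours in the order of levels, 2.13 on the log2 scale, separated these 4 tumors (up to 0.875 CPM) from JM833-T1 (4.06 CPM), and 96.0% of genes had no step as wide. Low tumors came from MaP -/- and MaP R245W/- mice, and no MaP R172H/- tumor lay below the step. No 76-base stretch of the annotated Ifi202b transcripts occurred exactly in the transcripts of another gene of GENCODE M39. Copies with mismatches and sequence outside annotated transcripts were not searched.

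Ifi213, a neighbour at the opposite side of the cluster, had the next widest range, 107-fold. In MaP R172H/- tumors it ran from 1.58 CPM in YZ7 through a median of 15.3 to 36.8 CPM in YZ10. In MaP R245W/- tumors it was 10.7 CPM in JM1233, 7.02 in RM0014, 3.74 in JM1564, 1.18 in JM1126 and 0.763 in JM1133. In MaP -/- tumors it ran from 14.0 CPM in JM779-T1 through a median of 46.2 to 81.3 CPM in JM663-T1. All 5 MaP R245W/- tumors were thus below all 6 MaP -/- tumors, the only member whose groups did not overlap in any of the 3 comparisons, and 1.29% of genes were separated in this comparison (0.85% with MaP R245W/- lower), 4.81% between MaP R172H/- and MaP -/- and 5.81% between the mutant groups. Within MaP R245W/- the order of Ifi213 ran opposite to that of Ifi202b at its ends: JM1126 and JM1133 had the highest Ifi202b and the lowest Ifi213 of all 18 tumors, and JM1233 had the lowest Ifi202b and the highest Ifi213 of its group. These same tumors, JM1126 and JM1133, are the pair of their group without the reporter allele. In MaP R172H/- tumors, where 3 carried the reporter and 4 did not, Ifi202b spanned 30.9 to 77.8 CPM with it and 7.19 to 94.5 CPM without it, and Ifi213 spanned 11.1 to 36.8 CPM with it and 1.58 to 19.3 CPM without it, so that the ranges overlapped.

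**Figure D1:**
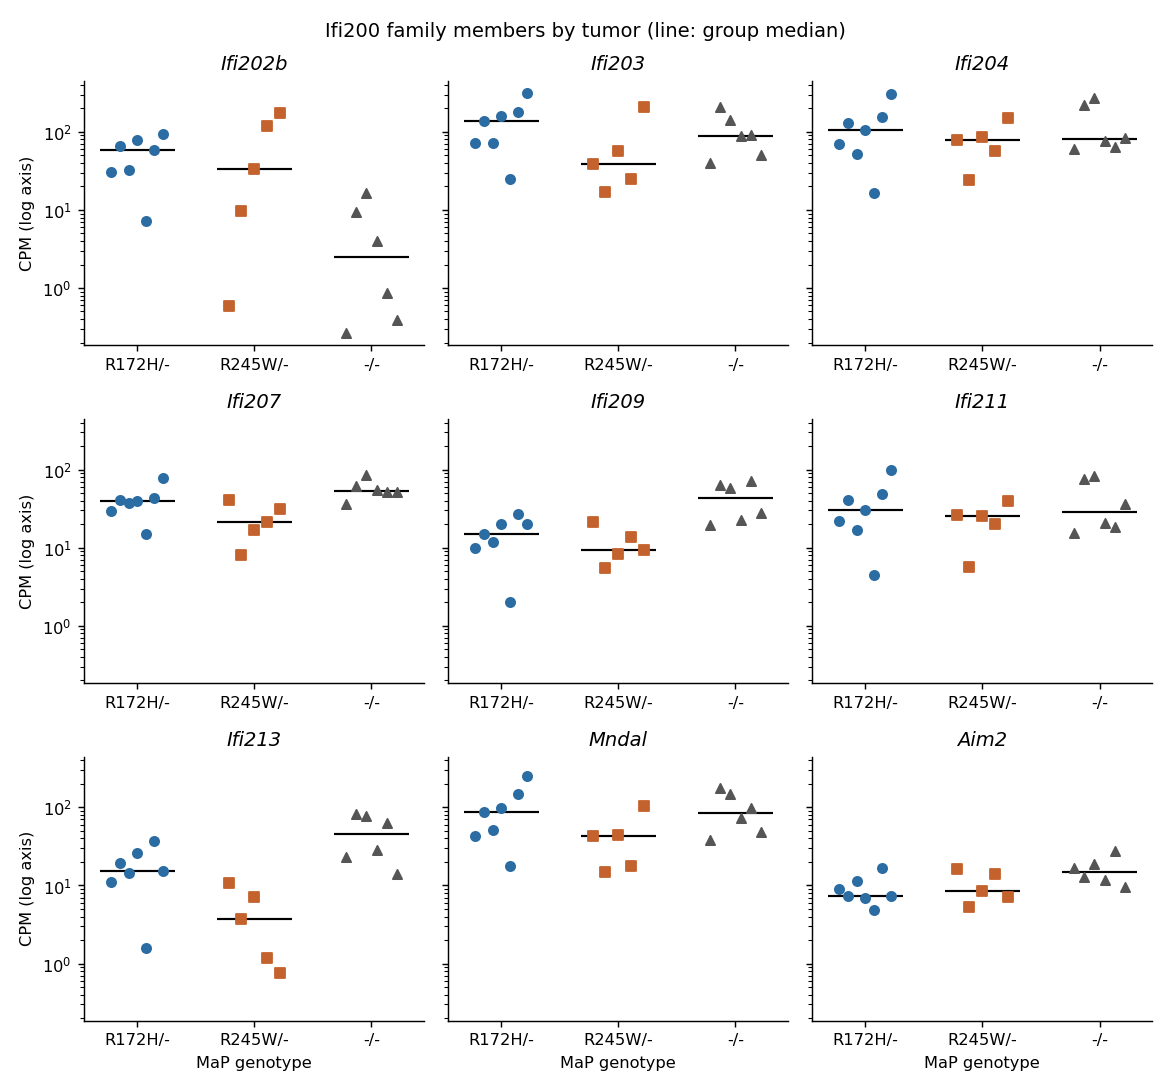
Level of each of the 9 members in CPM on a log axis, with 1 point per tumor (circles MaP R172H/-, squares MaP R245W/-, triangles MaP -/-) and a line at each group's median. Ifi202b spreads from 0.263 to 174 CPM, whereas Aim2 stays between 4.87 and 27.7 CPM.

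**Figure D2:**
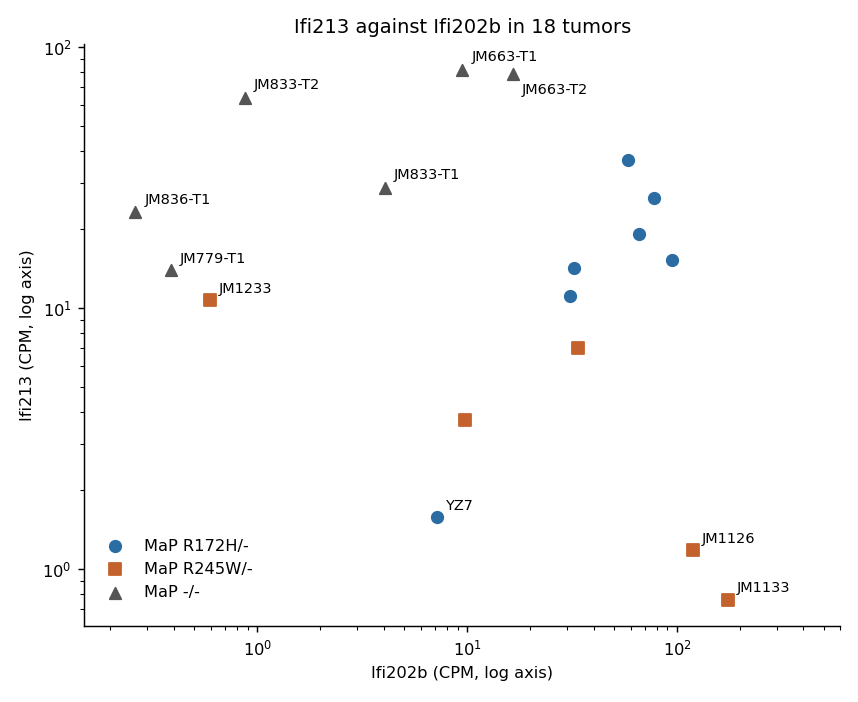
Ifi213 against Ifi202b, both in CPM on log axes, with 1 point per tumor. JM1126 and JM1133 sit at the lower right, with the highest Ifi202b and the lowest Ifi213, and the MaP -/- tumors fill the upper left.

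Ifi203, Ifi204, Mndal and Ifi211 had narrower ranges, from 16.9-fold for Mndal to 21.9-fold for Ifi211, and YZ11 had the highest level of all 4. Ifi203 ran from 24.7 through 138 to 314 CPM (lowest, median, highest) in MaP R172H/- tumors and from 39.5 through 89.2 to 206 CPM in MaP -/- tumors. In MaP R245W/- tumors Ifi203 was 38.4 CPM in JM1233, 16.9 in JM1564, 56.7 in RM0014, 24.7 in JM1126 and 208 in JM1133, so that JM1133 stood apart from the other 4. Ifi204, a DNA sensor also known as p204, ran from 16.3 through 106 to 302 CPM in MaP R172H/- tumors and from 59.8 through 80.5 to 274 CPM in MaP -/- tumors, and it was 79.7, 23.9, 85.0, 56.2 and 149 CPM in JM1233, JM1564, RM0014, JM1126 and JM1133. Mndal ran from 17.5 through 86.7 to 252 CPM in MaP R172H/- tumors and from 38.6 through 85.2 to 179 CPM in MaP -/- tumors, and was 43.5, 15.0, 44.9, 18 and 103 CPM in the MaP R245W/- tumors in the same order. All groups overlapped for these 4 genes. Ifi211 counts are less certain than the rest, because 59.2% of its 76-base stretches were shared with other genes (35.9% with Ifi205), against 14.2% for Ifi204, 11.6% for Mndal and 8.60% for Ifi203.

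Ifi207 and Ifi209 were both highest in MaP -/- tumors. Ifi207 ran from 15.0 through 39.4 to 78.4 CPM in MaP R172H/- tumors and from 36.3 through 53.6 to 86.3 CPM in MaP -/- tumors, and was 40.8, 8.0, 16.8, 21.1 and 31.3 CPM in JM1233, JM1564, RM0014, JM1126 and JM1133. Ifi209 ran from 2.02 through 14.9 to 26.7 CPM in MaP R172H/- tumors and from 19.8 through 42.7 to 72.6 CPM in MaP -/- tumors, and was 21.5, 5.50, 8.19, 13.7 and 9.27 CPM in the same order of MaP R245W/- tumors. JM1233 was the highest MaP R245W/- tumor for both genes and reached into the MaP -/- range. Ifi209 shared 22.8% of its 76-base stretches, all of them with Ifi214.

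Aim2 was the flattest member, with a 5.70-fold range. It ran from 4.87 through 7.26 to 16.5 CPM in MaP R172H/- tumors and from 9.59 through 14.9 to 27.7 CPM in MaP -/- tumors, and was 16.1, 5.31, 8.54, 13.8 and 7.02 CPM in JM1233, JM1564, RM0014, JM1126 and JM1133. The highest value belonged to JM833-T2, the tumor with the most B-cell marker RNA, and the part of B cells in it was not tested. Per kilobase of exon, the median over 18 tumors was 22.4 CPM for Ifi204, 15.1 for Mndal, 13.6 for Ifi211, 13.2 for Ifi202b, 11 for Ifi207, 10.6 for Ifi203, 5.43 for Ifi209, 1.60 for both Ifi213 and Aim2. By group, the median of Ifi202b was the highest of the 9 members in MaP R172H/- tumors (32.3 CPM per kilobase), the next after Ifi204 in MaP R245W/- tumors (18.7 against 21.8) and the lowest in MaP -/- tumors (1.37, with Aim2 next at 2.27).

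Between MaP R172H/- and MaP -/- tumors, Ifi202b averaged 52.3 ± 30.4 CPM (SD, n = 7) and 5.26 ± 6.54 CPM (SD, n = 6), a log2 fold change of 3.34 ± 0.92 (SE). Of the other members, 2 were above 0 and 6 below. Over all genes, 8.4% of 20954 were called at an FDR under 0.05 by edgeR's quasi-likelihood test, and calls of members are not given because these values chose them. The lowest were Ifi209 at -1.52 ± 0.48, Ifi213 at -1.41 ± 0.56 and Aim2 at -0.82 ± 0.31, and Ifi203, Ifi204, Ifi211 and Mndal were between -0.13 and 0.45 with standard errors of at least 0.51. The median over the members was -0.13, against 0.0027 over all genes tested.

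Between MaP R245W/- and MaP -/- tumors, the log2 fold change of Ifi202b was 3.67 ± 1.32 (SE), at 67.6 ± 76 CPM (SD, n = 5) against 5.26 ± 6.54 CPM, and all 8 other members were below 0. Ifi213 was at -3.37 ± 0.75, Ifi209 at -1.92 ± 0.46, Ifi207 at -1.28 ± 0.37, Mndal at -1.13 ± 0.55, Ifi211 at -0.84 ± 0.55, Ifi204 at -0.73 ± 0.52, Aim2 at -0.69 ± 0.36 and Ifi203 at -0.58 ± 0.64. The median over the members was -0.84, against 0.02 over all genes tested. Over the whole table edgeR called 0 genes (0.0% of 21452) in this comparison, with 2527 genes at an unadjusted p under 0.05, and DESeq2 called 424 genes. Without JM1133, which stood apart for Ifi203, the fold change of Ifi203 was -1.58. This comparison shares the MaP -/- tumors with the previous one. Between MaP R172H/- and MaP R245W/- tumors, Ifi213 was at 1.92 ± 0.71, Mndal at 1.15 ± 0.60, Ifi203 at 0.99 ± 0.64, Ifi207 at 0.78 ± 0.38 and Ifi202b at -0.37 ± 1.01. Without JM1133 Ifi203 was at 2.0 and Ifi202b at 0.36. Over the whole table edgeR called 9.4% of 22481 genes there.

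Among the neighbours that were not members, Ifi206 and Ifi208 had group means in the same order as Ifi213. These means were lowest in MaP R245W/- and highest in MaP -/- tumors. Within MaP R245W/-, however, Ifi208 was highest in JM1133 (4.81 CPM), where Ifi213 was lowest (0.763 CPM). Ifi206 averaged 7.72 ± 4.79 CPM (SD, n = 7) in MaP R172H/-, 2.13 ± 0.98 (n = 5) in MaP R245W/- and 15.8 ± 8.75 (n = 6) in MaP -/- tumors, and Ifi208 averaged 10.8 ± 8.08, 2.23 ± 1.49 and 14.7 ± 11.5 CPM. For both genes all MaP R245W/- tumors were below all MaP -/- tumors, as they were for 0.85% of all genes. The adjusted values were 0.26 and 0.33 in edgeR. Both were higher in MaP R172H/- than in MaP R245W/- tumors, groups that also differ in platform. The log2 difference was 1.85 ± 0.56 (FDR = 0.047 from edgeR) for Ifi206 and 2.28 ± 0.70 (FDR = 0.048) for Ifi208, where 9.4% of all genes were called. With 1 tumor left out in turn, the call was lost in 13 of 18 cases for Ifi206 (1.61 to 2.05, highest FDR 0.098 in edgeR, without JM1126) and in 12 of 18 for Ifi208 (2.0 to 2.77, highest FDR 0.11, without RM0014). Across 18 tumors the log2 CPM of Ifi213 had a Pearson r of 0.91 with Ifi206, 0.80 with Ifi209 and 0.75 with Ifi208, and of -0.32 with Ifi202b. These genes share up to 8.66% of their 76-base stretches (Ifi208 with Ifi213), and points within a group share genotype and platform.

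Members were also set against Ifi203 in the same library. For Ifi202b this ratio had a narrower fold range than its level in MaP R172H/- and in MaP -/- tumors. In MaP R245W/- tumors it did not. The ratio of Ifi202b to Ifi203, genes that lie next to each other, was between 0.291 and 0.486 in the 7 MaP R172H/- tumors, although Ifi202b itself ran from 7.19 to 94.5 CPM. In MaP -/- tumors it was between 0.00667 and 0.118. In MaP R245W/- tumors it was 0.0155 in JM1233, 0.575 in JM1564, 0.594 in RM0014, 0.837 in JM1133 and 4.83 in JM1126. All MaP R172H/- tumors were thus above all MaP -/- tumors on this ratio, and JM1233 was placed among the MaP -/- tumors. These groups also differ in platform, and 4.81% of single genes separated them. The share of gene pairs whose ratio separates them was not computed. The ratio of Mndal to Ifi203 was between 0.588 and 0.825 in MaP R172H/- and between 0.822 and 1.09 in MaP -/- tumors, a narrow overlap. It was between 0.494 and 1.13 in MaP R245W/- tumors. The ratio of Ifi204 to Ifi203 was between 0.659 and 2.28 over all 18. Ifi213 per Ifi203 was between 0.276 and 0.706 in MaP -/- and between 0.0486 and 0.206 in MaP R172H/- tumors. In MaP R245W/- tumors it was 0.279 in JM1233, inside the MaP -/- range, 0.221 in JM1564, 0.124 in RM0014, 0.0478 in JM1126 and 0.00366 in JM1133. Ifi202b made up 7.67 to 13.8% of the summed CPM of the 9 members in MaP R172H/- tumors, 0.105 to 1.83% in MaP -/- tumors and 0.215 to 41.4% in MaP R245W/- tumors.

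**Figure D3:**
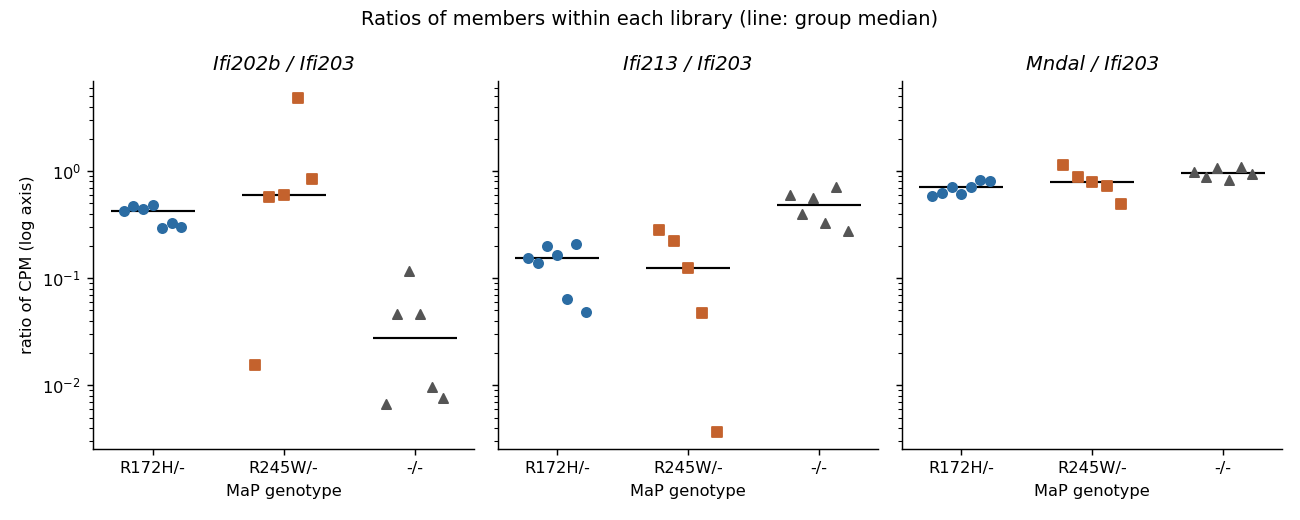
Ratio of CPM of Ifi202b, Ifi213 and Mndal to Ifi203 in the same library, on a log axis, with 1 point per tumor and a line at each group's median. The Ifi202b ratio stays between 0.291 and 0.486 in MaP R172H/- tumors and at 0.118 or less in MaP -/- tumors, whereas the Mndal ratio stays between 0.494 and 1.13 throughout.

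Tumor pairs from the same MaP -/- mouse share their inherited genome. In JM663 the members differed between its tumors by 1.03-fold (Ifi213, 81.3 and 78.6 CPM) to 1.74-fold (Ifi202b, 9.47 and 16.5 CPM). In JM833 Ifi203 was 88.2 and 90.1 CPM and Ifi207 54.7 and 51.7 CPM, whereas Ifi202b was 4.06 CPM in JM833-T1 and 0.875 CPM in JM833-T2, a 4.64-fold difference, and Ifi209 (22.5 and 72.6 CPM), Aim2 (11.8 and 27.7 CPM) and Ifi213 (28.8 and 63.6 CPM) differed by 3.22-fold, 2.35-fold and 2.21-fold in the opposite direction. The largest step in Ifi202b levels therefore ran between tumors of 1 mouse. JM833-T2 also had the highest B-cell, T-cell and dendritic marker scores of all 18 tumors, 5.96, 2.92 and 2.41 log2 units above the mean of 18, and their part in this difference was not tested.

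Genes whose expression is known to differ between BALB/c and C57BL/6 were set beside the family. H2-Ea, the alpha chain of a class II molecule that C57BL/6 mice do not make, was between 15.4 and 156 CPM in 13 tumors and under 1 CPM in the other 5, namely YZ3, YZ6, JM1126, JM663-T1 and JM663-T2. H2-Aa, another class II alpha chain, was chosen for comparison after these values were seen. H2-Ea per H2-Aa was between 0.285 and 0.756 in those 13 tumors and at or below 0.00764 in the 5. Gbp2b, a guanylate-binding protein known as Gbp1 with a poorly inducible allele in C57BL/6, was under 1 CPM in YZ6, YZ10, YZ11, JM836-T1, JM663-T1 and JM663-T2, at 1.75 and 1.38 CPM in JM833-T1 and JM833-T2, and between 10.1 and 454 CPM in the other 10. Its related gene Gbp2, also chosen after seeing the values, was between 18 and 639 CPM throughout, and Gbp2b per Gbp2 was at most 0.0265 in those 8 tumors and at least 0.234 in the 10. Nnt, which is truncated in C57BL/6J, was between 1.64 and 3.77 CPM in every tumor. Over 18 tumors its log2 CPM had a Pearson r of 0.82 with that of Ifi213, rank 13 among genes outside the cluster. What lies behind this likeness was not tested. Both tumors of JM663 and both of JM833 fell on the same side for H2-Ea and for Gbp2b. In a uniform F1 background every mouse would hold 1 BALB/c copy of H2-Ea, yet 5 tumors read under 1 CPM. The levels of H2-Ea are thus at odds with such a background in all mice, and the reason was not tested.

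Levels of H2-Ea and Gbp2b did not line up with those of Ifi202b. The 4 tumors under 1 CPM of Ifi202b (JM836-T1, JM779-T1, JM1233 and JM833-T2) all had H2-Ea between 15.4 and 156 CPM, and of them Gbp2b was 0.0376 CPM in JM836-T1, 1.38 in JM833-T2, 30.1 in JM779-T1 and 55.5 in JM1233. Among the tumors with H2-Ea under 1 CPM, Ifi202b ran from 9.47 CPM in JM663-T1 to 119 CPM in JM1126. Within MaP R172H/- tumors, the ratio of Ifi202b to Ifi203 was 0.475 and 0.486 in YZ3 and YZ6, which had H2-Ea under 1 CPM, and between 0.291 and 0.447 in the other 5. None of these genes lies on chromosome 1 (H2-Ea is on 17, Gbp2b on 3 and Nnt on 13), so they describe other parts of the genome. The strain origin of the cluster in each mouse was not tested and cannot be taken as the same in all mice.

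**Figure D4:**
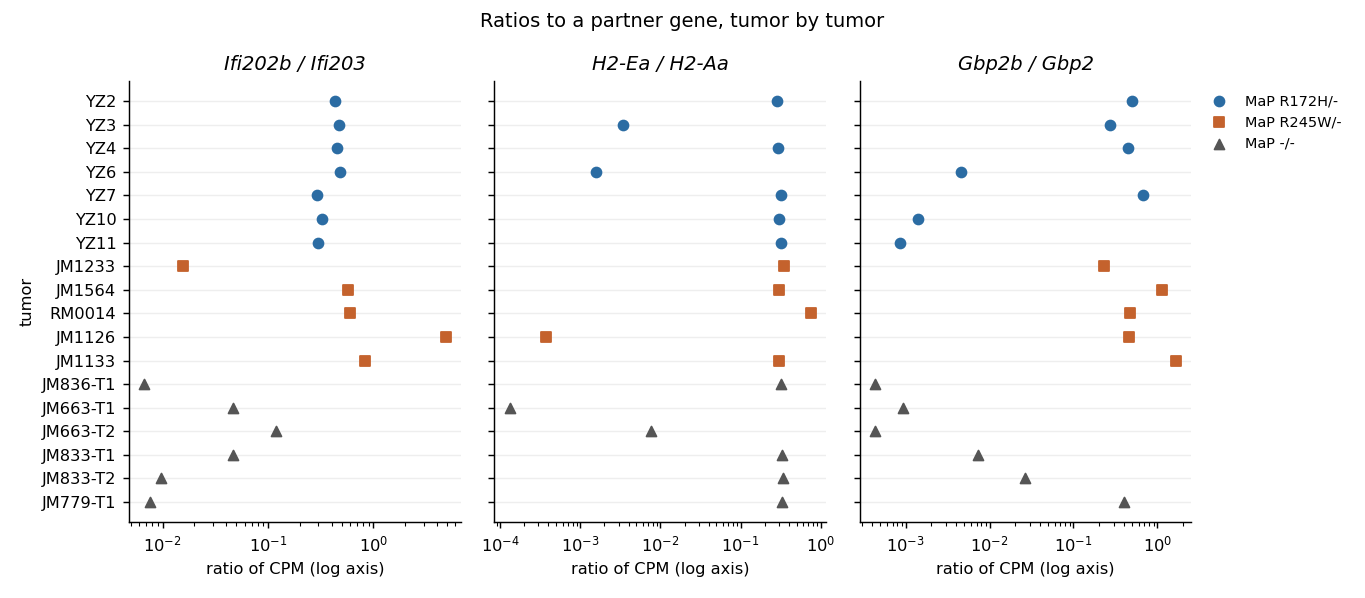
Ratio of CPM of Ifi202b to Ifi203, H2-Ea to H2-Aa and Gbp2b to Gbp2 in each of the 18 tumors, on log axes. H2-Ea falls to a ratio at or below 0.00764 in 5 tumors and Gbp2b to 0.0265 or less in 8, and these are not the tumors with the lowest Ifi202b ratio as a set.

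The graded part of the family's expression was followed along an interferon score, the mean over 35 interferon-stimulated genes outside the family of log2 CPM centred on the mean of 18 tumors, with genotype in the model. The score ran from -1.79 (YZ7) to 1.66 (YZ11) in MaP R172H/-, from -1.68 (JM1126) to 1.35 (JM1133) in MaP R245W/- and from -0.74 (JM779-T1) to 1.38 (JM663-T1) in MaP -/- tumors. Lgals3bp, Parp14 and Samd9l had the highest mean levels of its genes, and Parp14 ran from 59.9 CPM to 541 CPM. The score differed by 0.12 between MaP R172H/- and MaP -/- tumors (0.28 ± 1.12 and 0.16 ± 0.80, SD, two-sided exact permutation p = 0.83), by -0.74 between MaP R245W/- and MaP -/- tumors (-0.58 ± 1.21 for MaP R245W/-, exact permutation p = 0.24) and by 0.86 between the mutant groups (exact permutation p = 0.23), and over these 3 comparisons no difference exceeded the spread between tumors. Without JM1133 the score of MaP R245W/- tumors lay 1.23 below that of MaP -/- tumors (exact permutation p = 0.038, not adjusted for 3 comparisons).

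Ifi203 and Mndal rose by about as much as the score itself. Per unit of score Ifi203 rose by 1.02 ± 0.10 (SE) on the log2 scale (FDR = 5.7e-06 over all genes, edgeR), Mndal by 0.91 ± 0.13 (FDR = 0.00080) and Ifi204 by 0.85 ± 0.17 (FDR = 0.013). These 3 of 9 members were called, where 1.46% of 22446 genes were called (0.655% rising). The members were chosen with their values known. Their FDR values and counts of calls, here and in the fits below, are thus a description and no test of the family. Ifi211 was at 0.80 ± 0.20 (FDR = 0.054), Ifi213 at 0.56 ± 0.38 (FDR = 0.51), Ifi209 at 0.37 ± 0.24 (FDR = 0.48), Ifi207 at 0.33 ± 0.14 (FDR = 0.26) and Aim2 at -0.09 ± 0.16 (FDR = 0.84). Ifi202b had a slope as steep as that of Ifi203, 1.03, but with an SE of 0.40 (FDR = 0.21). The median over the members was 0.80, against -0.02 over all genes tested. Of the neighbours, Ifi208 rose by 0.98 ± 0.19 (FDR = 0.012) and Ifi203-ps by 0.61 ± 0.11 (FDR = 0.0078). Counts of Ifi203-ps are uncertain, because 63.9% of its 76-base stretches were shared with other genes (47.6% with Gm71342). Ifi206 was at 0.72 ± 0.20 (FDR = 0.079). Ifi205, which lies just past Ifi202b and was named outside the rule, was at 0.68 ± 0.28 (FDR = 0.23). Ifi204 was no longer called without YZ7 (0.73, FDR = 0.11) or without YZ11 (0.77, FDR = 0.051), whereas Ifi203 and Mndal were called with every tumor left out in turn. Without YZ7 neither Ifi208 (0.78, FDR = 0.070) nor Ifi203-ps (0.60, FDR = 0.052) was called.

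JM1126 had the lowest interferon score of its group and 119 CPM of Ifi202b, and without it the slope was 1.72 ± 0.31 (FDR = 0.0091, edgeR). With any other tumor left out the slope was between 0.91 and 1.2 and was not called. Within the 7 HiSeq tumors, all MaP R172H/-, Ifi202b rose by 1.10 ± 0.13 per unit (FDR = 0.013), beside Ifi203 at 1.05 ± 0.10 (FDR = 0.0063), Ifi204 at 1.17 ± 0.15, Mndal at 1.09 ± 0.14, Ifi211 at 1.21 ± 0.17, Ifi209 at 1.03 ± 0.21 and Ifi207 at 0.61 ± 0.11, so that 7 of 9 members were called, where 2.83% of 16441 genes were. Ifi213 was at 1.16 ± 0.34 (FDR = 0.10) and Aim2 at 0.21 ± 0.23 (FDR = 0.65) there. YZ7 stood apart in this set, with a score of -1.79 against -0.22 or more in the other 6 and 377 CPM of epithelial markers against 2490 CPM or more, and the part of cell make-up was not tested. Without YZ7, a fit added after the data were seen, edgeR called 0 of 9 members and 0.0% of 17053 genes (1282 at an unadjusted p under 0.05). The slopes were then 1.10 ± 0.17 for Ifi203, 1.24 ± 0.22 for Mndal, 1.13 ± 0.24 for Ifi204, 0.85 ± 0.18 for Ifi202b, 0.59 ± 0.25 for Ifi209 and 0.45 ± 0.39 for Ifi213. Within the 11 NovaSeq tumors of the other groups, Ifi203 rose by 0.99 ± 0.14 (FDR = 0.013) and was the only member called, where 0.229% of 21417 genes were. There Mndal was at 0.76 ± 0.18 (FDR = 0.21), Ifi204 at 0.61 ± 0.21 (FDR = 0.55), Ifi202b at 0.98 ± 0.62 (FDR = 0.73), Ifi213 at 0.07 ± 0.51 and Ifi209 at -0.03 ± 0.25. Whether the slopes differ between these sets of tumors was not tested.

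**Figure D5:**
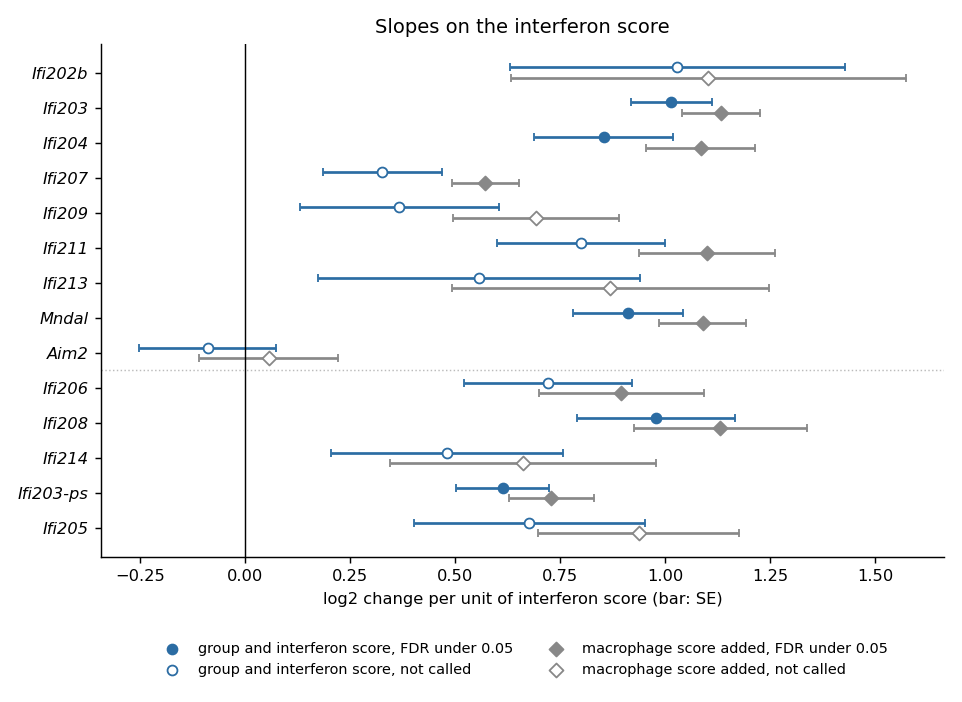
Slope of each member (above the dotted line) and of 5 neighbouring genes on the interferon score, in log2 change per unit of score, with bars of 1 SE (circles: genotype and interferon score in the model, diamonds: macrophage score added, filled where FDR is under 0.05). Ifi203 and Mndal lie near 1 with short bars, Ifi202b lies near 1 with a long bar, and Aim2 lies near 0.

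Macrophages are a main site of expression of the family, so a score over 12 macrophage markers was set beside it in the same way. Their summed level ran from 1447 to 1972 CPM in MaP R172H/-, from 1482 to 8530 CPM in MaP R245W/- (highest in JM1233) and from 1316 to 4348 CPM in MaP -/- tumors, and all 12 were detected in every group. None of 9 members was called for its slope on this score (edgeR, where 2.88% of 22469 genes were called and 4553 had an unadjusted p under 0.05, and DESeq2 called 2717 genes). The slope was -1.15 ± 1.26 (SE) for Ifi202b and -0.76 ± 0.53 for Ifi203, whereas Ifi209 was at 0.59 ± 0.39, Aim2 at 0.56 ± 0.28 and Ifi207 at 0.52 ± 0.29. JM1233, with 8530 CPM of the markers, had 0.595 CPM of Ifi202b but the highest Ifi207, Ifi209, Ifi213 and Aim2 of its group. JM1126, with 3623 CPM of the markers, had 119 CPM of Ifi202b, and JM1133, with 1511 CPM, had 174 CPM. The part of macrophages in these levels was not tested.

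With both scores in the model, more members followed interferon. Ifi203 rose by 1.13 ± 0.09 (SE) per unit of interferon score (FDR = 2.1e-06, edgeR), Mndal by 1.09 ± 0.10, Ifi204 by 1.08 ± 0.13, Ifi211 by 1.10 ± 0.16 and Ifi207 by 0.57 ± 0.08, so that 5 of 9 members were called, where 1.34% of genes were. Ifi202b was at 1.10 ± 0.47 (FDR = 0.29), Ifi213 at 0.87 ± 0.38 (FDR = 0.30) and Aim2 at 0.06 ± 0.16 (FDR = 0.93). In the same model Ifi207 rose by 1.10 ± 0.17 per unit of macrophage score (FDR = 0.013). The macrophage slopes of Ifi202b and Ifi203, negative without the interferon score, were positive there, at 0.54 and 0.55. Those of Ifi204 and Mndal were positive as well.

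The genes that act with Aim2 were followed through a list of 20 DNA sensing and inflammasome genes, 19 of which were tested. Between MaP R172H/- and MaP -/- tumors 1 rose and 1 fell in edgeR, where 8.4% of all genes were called. Irf3, a transcription factor of the interferon response, rose by 0.90 ± 0.16 (SE) on the log2 scale (FDR = 0.0052), and Il1b, the cytokine matured by caspase-1, fell by 1.91 ± 0.53 (FDR = 0.041). The call of Irf3 held with each of 13 tumors left out, and that of Il1b was lost in 9 of 13 cases (-2.12 to -1.49, highest FDR 0.11 in edgeR, without JM663-T2). Pycard was at 0.10 ± 0.24 and Casp1 at 0.09 ± 0.30, while Gsdmd, the pore-forming target of caspase-1, was at -1.24 ± 0.38 (FDR = 0.061) and Il18 at -1.10 ± 0.45 (FDR = 0.15). None was called between MaP R245W/- and MaP -/- tumors, where edgeR called no gene. Between the mutant groups 2 fell in MaP R172H/- relative to MaP R245W/-, Il1b by 2.57 ± 0.71 (FDR = 0.030) and Dnase2a, a lysosomal nuclease, by 0.51 ± 0.15 (FDR = 0.035), where 9.4% of all genes were called. Il1b was 345 CPM in JM1126 and 14.0 to 53.1 CPM in the other 4 MaP R245W/- tumors, and without JM1126 its difference was -1.09 ± 0.56 (FDR = 0.26, edgeR). Its call was also lost without YZ2, YZ4 or YZ10, and that of Dnase2a in 7 of 18 cases (-0.55 to -0.45, highest FDR 0.099, without JM1126). Along the interferon score none of the 19 was called, at a median slope of -0.10 against -0.02 over all genes, and along the macrophage score 3 rose, Gsdmd by 1.44 ± 0.28 (FDR = 0.016), Il18 by 1.44 ± 0.34 (FDR = 0.033) and Nlrc4, a sensor of another inflammasome, by 0.997 ± 0.20 (FDR = 0.019), where 2.88% of all genes were called. Without JM1233, which had the most macrophage marker RNA, none of these 3 was called (FDR = 0.095, 0.24 and 0.13 from edgeR), and none was called without JM1564.

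The genes outside the cluster with the most similar pattern were listed for Ifi204, Ifi202b and Ifi213. Over 18 tumors, the log2 CPM of Ifi204 had a Pearson r of 0.90 with Gvin2, 0.89 with Gm12250, 0.89 with Slfn8, 0.89 with Trim30a and 0.88 with Trim30c. Within the cluster its r was 0.99 with Ifi211, with which it shares 12.4% of its 76-base stretches, 0.90 with Mndal and 0.87 with Ifi203. Ifi202b had an r of 0.87 with Cep170b and 0.82 with Fam83h, and of 0.81 with Supt7l, Sfrp1 and Gm9776, and within the cluster its highest r was 0.43, with Ifi203. Ifi213, added after its values were seen, had an r of 0.90 with Slamf7, which lies on chromosome 1 near the cluster. The next genes for Ifi213 lay on other chromosomes, with an r of 0.89 for Gm45555, 0.86 for Smim18 and 0.85 for Gm18646 (chromosome 8) and 0.84 for Gm48706 (chromosome 13). Among the 20 most similar genes outside the cluster, 1 for Ifi202b, 0 for Ifi204 and 1 for Ifi213 lay within 20 Mb of it, a window that holds 2.01 to 2.03% of all genes compared. The points share genotype, platform and, for 4 tumors, a mouse.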

How the data were processed

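The authors checked reads with FastQC 0.11.9, aligned them to GRCm39 with STAR 2.7.10b and quantified genes with RSEM 1.3.3 on GENCODE M34. They deposited whole-number counts for 57126 genes in 18 tumors. Of these genes 506, with at most 0.046% of the counts of a tumor, were not in the GENCODE M39 annotation used here. The labels do not say whether counting used strand.

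The members and gene lists were chosen with earlier results of these data known. Members are the 9 named genes. Other genes named are the cluster genes that passed the filter, called genes of the DNA sensing and strain lists with the genes downstream of Aim2, and the 5 genes most like Ifi202b or Ifi204. H2-Aa, Gbp2, Ifi205 and the genes most like Ifi213 were chosen after values were seen.

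Counts were scaled by TMM and tested with edgeR 4.0.16 (quasi-likelihood, filterByExpr, Benjamini-Hochberg FDR under 0.05 over all genes) in R 4.3.3. MaP R172H/- and MaP R245W/- were each compared with MaP -/- in a fit of those groups, and the mutant groups in a fit of 18 tumors. Scores are means of centred log2 CPM with a prior count of 2, and score genes were left out of counts of calls. Levels are CPM on TMM-scaled library sizes, without a pseudocount. The script was tested on simulated data. Alternatives were DESeq2 1.42.0, other size factors and filters, tumors of 1 mouse summed, tumors left out, and, added after the data were seen, each platform alone and the HiSeq tumors without YZ7. MaP -/- tumors include pairs from the same mouse, which the main fits treat as separate samples, so p-values there measure the spread between tumors. Platform follows MaP R172H/- and could not be a term. Totals per tumor limit precision only for the lowest levels, where counting error adds to the spread.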

Additional observations from a re-analysis of the deposited data

Results flagged for a closer look

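Among 39 groups of values checked for a tumor far from the others of its group, 4 held one, where chance gives about 1 in 20 if groups are independent. The groups here share tumors, and all flags fell on JM1133 or JM779-T1, so 4 of 39 is not read as an excess. Ifi203 was 208 CPM in JM1133, above the other 4 MaP R245W/- tumors at 16.9 to 56.7 CPM. Gbp2b was 454 CPM in JM1133, against 10.1 to 71.8 CPM in the rest of that group. In MaP -/- tumors, Gbp2b was 30.1 CPM in JM779-T1 and at most 1.75 CPM in the other 5. Nnt was 2.81 CPM in JM779-T1, below the other MaP -/- tumors at 3.46 to 3.77 CPM.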

How the results depend on the processing

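No paired analysis was possible because the labels give the groups no shared replicate numbers. Fold changes of Ifi204, Ifi211 and Mndal (MaP R172H/- against MaP -/-) and of Ifi202b and Aim2 (MaP R172H/- against MaP R245W/-) changed sign under some settings, with a range of -0.56 to 0.25 for Ifi204, -0.60 to 0.20 for Ifi211 and -0.39 to 0.31 for Mndal with a tumor left out, and those of the other members kept their direction.

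Counts of called genes moved by over 1.5 times as follows. MaP R172H/- against MaP -/- gave 1760 genes, 3432 with DESeq2, 1126 with tumors of 1 mouse summed, and 1051 or 287 with a log2 fold change over 1 or 2, and 1067 (without JM663-T2) to 1866 with a tumor left out. MaP R245W/- against MaP -/- gave 0, 424 with DESeq2, 2 in a fit of 18 tumors and 0 to 3 with a tumor left out. MaP R172H/- against MaP R245W/- gave 2114, 3703 with DESeq2, 1401 with at least 10 counts in every tumor, 1392 or 526 over a log2 fold change of 1 or 2, and 1525 to 2362 with a tumor left out. The interferon slope gave 327, 1456 with DESeq2, 533 with no filter, 106 with an interferon gamma list, 49 in NovaSeq tumors alone, 0 in HiSeq tumors without YZ7 and 97 (without YZ7) to 515 (without JM836-T1) with a tumor left out. The macrophage slope gave 647, 2717 with DESeq2, 429 with tumors of 1 mouse summed, 2005 with no group term, 238 with the interferon score added, 0 in HiSeq tumors alone and 77 (without JM1564) to 1311 (without YZ7) with a tumor left out. The cause was not tested.

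The interferon score difference between MaP R172H/- and MaP -/- ran from -0.11 to 0.46 with a tumor left out (-0.03 without YZ6, -0.11 without YZ11, -0.03 without JM836-T1 and -0.06 without JM779-T1), and that between MaP R245W/- and MaP -/- from -1.23 (without JM1133) to -0.47. Some slopes that were not called changed sign. On interferon, Aim2 was 0.055 with the macrophage score added, 0.019 with the gamma list and 0.21 in HiSeq tumors, and Ifi209 was -0.032 in NovaSeq tumors. On macrophages with the interferon score added, Ifi202b was 0.54, Ifi203 0.55, Ifi204 1.09, Mndal 0.84, Ifi214 0.84, Ifi208 0.63 and Ifi203-ps 0.61. In HiSeq tumors Ifi202b was 4.49, Ifi203 3.98, Ifi204 3.89, Mndal 3.87, Aim2 -0.47, Ifi214 2.69, Ifi208 4.36 and Ifi203-ps 3.03. Ifi204 was 0.033 with tumors of 1 mouse summed. With no group term Ifi211 was -0.033, Ifi206 -0.011 and Ifi214 0.24, and in NovaSeq tumors Ifi211 was -0.069 and Ifi206 -0.10. With a tumor left out, macrophage slopes ran from -0.35 to 0.20 for Ifi203-ps, -0.31 to 0.31 for Ifi204, -0.66 to 0.26 for Ifi206, -0.17 to 0.45 for Ifi211, -0.55 to 0.79 for Ifi213, -0.35 to 0.56 for Ifi214 and -0.74 to 0.17 for Mndal.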
